A study of Mus musculus with 12 samples.

Results

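Interleukin receptor genes were taken as the autosomal protein-coding genes of GENCODE mouse release M21 whose symbol is Il, a number and r. The rule found 36 of 20807 autosomal protein-coding genes, and 5 further genes on chromosome X matched the symbol but were left out. One of the 36, Il1rn, matches by its letters although it encodes the secreted antagonist of the IL-1 receptor. Visceral white adipose tissue (WAT) came from C57BL/6 mice (backcrossed to C57BL/6J according to the methods) 8 weeks old on a standard diet, either wild type (Mof+/+) or heterozygous for Mof (Mof+/-) in every cell of the animal. Chromatin was digested with the enzyme CviKI-1 and sonicated, and precipitated with an antibody against MOF, the lysine acetyltransferase also called KAT8. In each genotype, 2 libraries each of MOF ChIP, H3 ChIP and input are described, 12 in all, and the analysis rests on 2 MOF peak lists, 1 for each genotype. No difference between genotypes could therefore be set against the spread between animals, and no test was made.

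Interleukin receptors are cell surface chains that pair with one another to bind secreted cytokines. Most signal through Janus kinases and STAT factors, while the IL-1 and IL-17 families use adaptors of the MyD88 and TRAF type. Some chains are made by many tissues, adipocytes included, and others mainly by T cells, natural killer (NK) cells or B cells, which also live in visceral fat. From textbook knowledge, 11 members were classed as lymphoid-restricted, 10 as broad, 5 as myeloid or general leukocyte and 10 as epithelial or other.

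The promoters of 5 receptor genes that lie next to each other or differ in MOF binding are given here, since the results turn on them. They come from RefSeq on GRCm38.p6, run 5′ to 3′ on the strand of the gene, hold the 250 bases before the annotated start and 50 from it, and carry CpG sites in capitals. Il4ra (chr7:125552021-125552320, plus strand, 25 CpG sites) and Il21r (chr7:125603179-125603478, plus strand, 7 CpG sites) are neighbours, and both lay under a Mof+/+ peak. Il2ra (chr2:11642542-11642841, plus strand, 3 CpG sites) and Il15ra (chr2:11705462-11705761, plus strand, 15 CpG sites) are neighbours too, and of these promoters a peak lay only over that of Il15ra. Where a gene had several entries, the one under a peak was taken, and the Il15ra peak begins 154 bp past the first start of the gene. Il7r (chr15:9529827-9530126, minus strand, 1 CpG site) had no peak over its promoter.
Il4ra: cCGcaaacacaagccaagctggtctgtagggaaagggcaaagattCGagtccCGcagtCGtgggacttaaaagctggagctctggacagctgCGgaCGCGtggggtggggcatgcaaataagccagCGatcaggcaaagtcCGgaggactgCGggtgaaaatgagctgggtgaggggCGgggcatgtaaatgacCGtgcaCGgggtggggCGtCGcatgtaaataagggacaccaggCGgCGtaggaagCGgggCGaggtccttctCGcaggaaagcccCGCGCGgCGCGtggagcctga
Il21r: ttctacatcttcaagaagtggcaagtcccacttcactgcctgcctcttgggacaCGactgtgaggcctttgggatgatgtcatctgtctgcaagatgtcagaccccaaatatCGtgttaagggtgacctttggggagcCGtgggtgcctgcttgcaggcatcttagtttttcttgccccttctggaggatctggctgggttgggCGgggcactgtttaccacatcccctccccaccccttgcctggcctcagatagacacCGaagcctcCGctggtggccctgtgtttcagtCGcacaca
Il15ra: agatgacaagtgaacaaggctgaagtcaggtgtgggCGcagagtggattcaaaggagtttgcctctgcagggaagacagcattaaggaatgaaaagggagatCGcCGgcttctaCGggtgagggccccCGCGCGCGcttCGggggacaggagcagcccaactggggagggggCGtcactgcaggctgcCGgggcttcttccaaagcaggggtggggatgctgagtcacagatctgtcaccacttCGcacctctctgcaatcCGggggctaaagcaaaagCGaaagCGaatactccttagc
Il2ra: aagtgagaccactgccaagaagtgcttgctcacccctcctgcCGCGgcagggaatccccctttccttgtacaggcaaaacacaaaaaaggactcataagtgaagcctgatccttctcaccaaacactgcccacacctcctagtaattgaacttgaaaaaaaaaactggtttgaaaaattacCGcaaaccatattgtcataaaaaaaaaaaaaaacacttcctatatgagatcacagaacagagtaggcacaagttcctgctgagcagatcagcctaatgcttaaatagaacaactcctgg
Il7r: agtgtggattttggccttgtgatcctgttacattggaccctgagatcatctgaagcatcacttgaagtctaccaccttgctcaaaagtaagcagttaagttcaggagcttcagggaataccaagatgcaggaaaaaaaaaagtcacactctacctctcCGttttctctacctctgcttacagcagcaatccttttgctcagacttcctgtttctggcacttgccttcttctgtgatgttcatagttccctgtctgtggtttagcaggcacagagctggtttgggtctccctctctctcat

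In Mof+/+ fat, 14 of the 36 receptor genes had a MOF peak at 1 kb or less from a start site (38.9%, 95% Wilson interval 24.8 to 55.1), against 42.7% of all autosomal protein-coding genes. A peak lay in the gene body of 21 of 36 (58.3%, 42.2 to 72.9), against 43.2%. The gene body runs from the start to the end of the gene and includes its start site. Together 62 Mof+/+ peaks fell on receptor genes, 16 of them within 1 kb of a start. The intervals count genes and cover counting error only. With q-values up to 0.001 only, the shares were 25.0% against 32.7% at promoters and 36.1% against 33.2% in gene bodies, so the gap in gene bodies shrank to a few points. The promoter share of the receptors was close to the background in the whole list, while 7 of 36 members had a peak in the gene body and none at a start, against 2.73% of all genes, and 15 of 36 had neither, against 54.5%.

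None of the 36 genes had a Mof+/- peak at this distance from a start or in the gene body. The shares of all genes in that list were 1.37% and 1.56%, and 0 of 36 allows a share of up to 9.64%, so a count of 0 lay within counting error of the background. The nearest Mof+/- peak to any receptor gene was 105833 bp from a start of Il17ra, and the next was 107465 bp from Il2ra. The Mof+/- list held 731 peaks against 19773, and its weakest peak had a −log10 p of 4.72 against 3.25 in the Mof+/+ list. Past that stricter limit there were still 37 of the 62 Mof+/+ receptor peaks, while 10 of 36 genes (27.8%) had a promoter peak, against 37.4% of all genes, and 14 of 36 (38.9%) a gene body peak, against 37.7%. At the lowest input background of the Mof+/- list a peak needed 11 fragments, a fold enrichment of 3.68, and weaker binding was not detectable there. Absence of a peak does not show absence of binding. In this mixed tissue fewer cells of a type and less MOF in each cell cannot be told apart.

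The enrichment of a peak is given as the deposited fold enrichment, the ratio of ChIP fragments over the summit to the local background with 1 added to both, which lowers it. Over the 14 receptor genes with a promoter peak the median of the highest value was 4.76, against 3.98 over the 8894 genes with one. Each summit of a receptor peak rested on 11 to 29 fragments, so intervals of single peaks are wide. The interval given with a fold enrichment below is the 95% Poisson interval of those fragments.

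**Figure D1:**
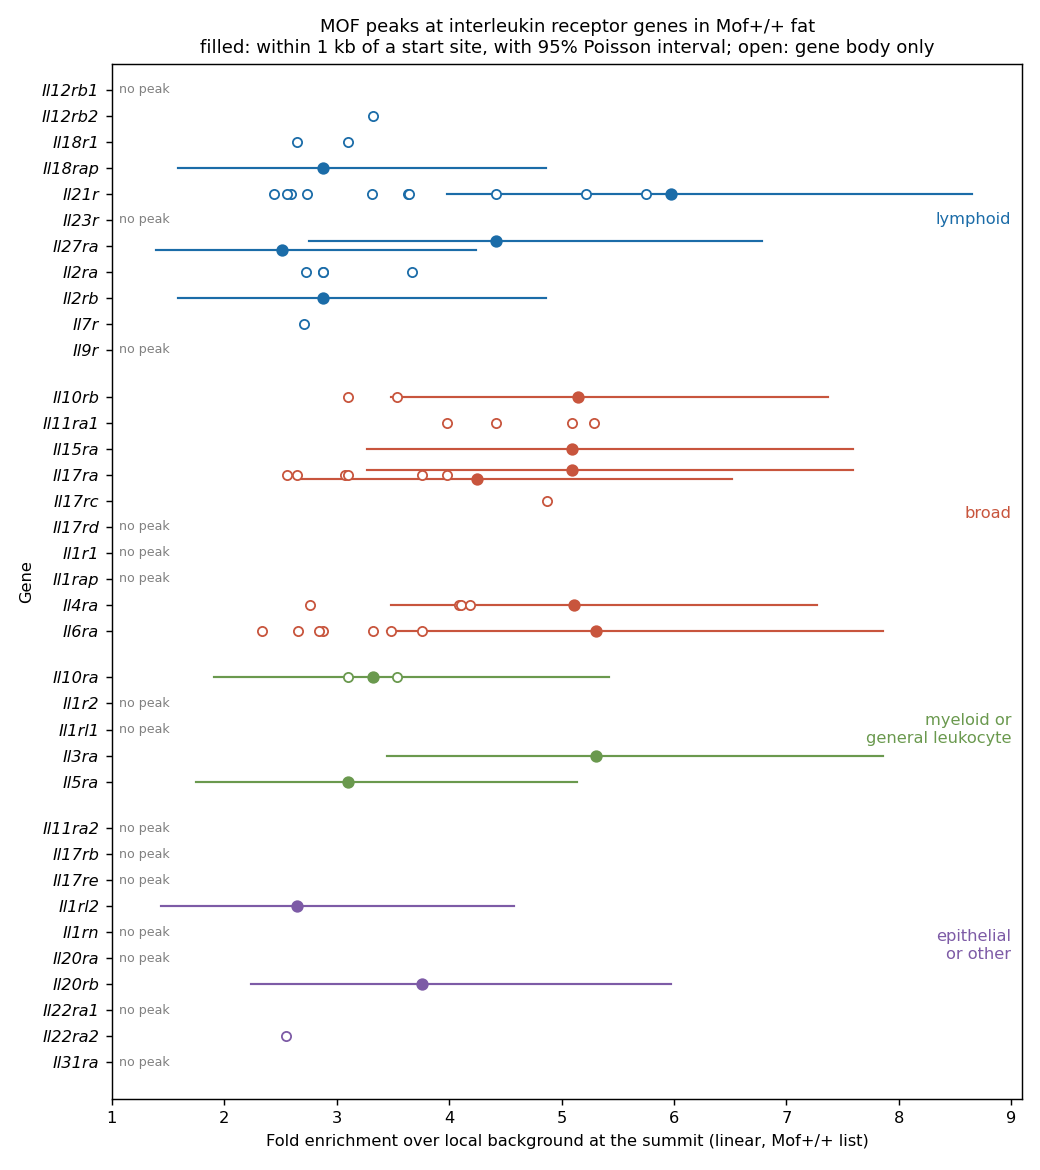
Fold enrichment (linear axis) of every Mof+/+ MOF peak at the 36 receptor genes, 1 row for each gene and grouped by class. Filled points are peaks within 1 kb of a start site, with lines for the 95% Poisson interval, and open points are gene body peaks; Il21r has the most peaks (11) and the highest value (5.97), and 15 genes have none.

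Receptors that use the common gamma chain, which are central to the growth and survival of lymphocytes, held the most peaks. In this and the following families the shares of all genes given above are the background, 42.7% with a promoter peak, 43.2% with a gene body peak and 54.5% with no peak. No family count was tested against it. The families were drawn up after the peaks were known, and their peak totals were not set against gene length. Of the 7, 4 had a promoter peak and 6 a peak in the gene body, 23 peaks in all, of which 16 belonged to the neighbours Il21r and Il4ra. Il21r, the receptor for IL-21 on B, T and NK cells (chromosome 7, 125603429 to 125633570), carried a peak from 125602867 to 125604568 that covered its start. Its fold enrichment was 5.97 (interval 3.98 to 8.65), the highest of the receptor promoters. Another 10 peaks lay along its gene body, from 2.44 to 5.75. The strongest of these had its summit in an intron 2237 bp past the start, and the widest ran for 3758 bp near the end of the gene (5.22). Of the 8894 genes with a promoter peak, 543 (6.11%) had a higher fold enrichment than Il21r and 110, Il21r included, had the same. Keap1, Kdm4d, Htra2 and Hspb6 were among those at the same value. Of the 14 receptor genes, 7 had at most 16.9% of genes above them, while 5 had at least 75.1%, so the family was spread over most of the range. None of the Il21r peaks had a counterpart in the Mof+/- list.

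Il4ra, the shared chain of the IL-4 and IL-13 receptors (chromosome 7, 125552120 to 125579474), had a peak of 4048 bp over its start, the widest of the receptor peaks, with a fold enrichment of 5.11 (3.48 to 7.27). In its gene body 4 further peaks reached 2.76 to 4.19, the last of them 3657 bp wide with its summit in coding sequence. Il4ra and Il21r lie side by side in the same orientation, and from the start of the first to the end of the second 81.5 kb held 24 peaks. Of these 8 lay between the genes, at 2.44 to 4.76, and the peaks covered 33.2% of the span. When the autosomes were divided into 30225 consecutive windows of this length, 4 windows (0.0132%) held as many or more. The span was picked after its peaks were seen, so this share is a description.

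Il2ra and Il15ra encode the alpha chains of the high-affinity receptors for IL-2 and IL-15, the first restricted mainly to activated and regulatory T cells and the second found widely. They too are neighbours, in 91.5 kb that held 5 peaks covering 3.13%. Il15ra (chromosome 2, 11705290 to 11734317) had 1 peak, over a start, with a fold enrichment of 5.09 (3.27 to 7.59). Il2ra (chromosome 2, 11642807 to 11693193) had no peak within 1 kb of a start. Its 4 peaks, at 2.73, 2.88, 2.88 and 3.67, all had their summits in introns, from 10863 bp to 21241 bp past the start, and the nearest peak to a start lay outside the gene, 5525 bp away. The summit of the strongest, with 50 bases on each side and 2 CpG sites in capitals, is shown as the point of highest MOF enrichment in that gene (chr2:11663998-11664098, plus strand, GRCm38.p6).
Il2ra intronic summit: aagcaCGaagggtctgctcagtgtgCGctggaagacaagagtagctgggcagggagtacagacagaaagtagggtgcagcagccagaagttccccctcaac
The pairs thus differed in how much of the locus lay under peaks, and Il4ra, Il21r and Il15ra had a peak over a start but Il2ra had none.

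**Figure D2:**
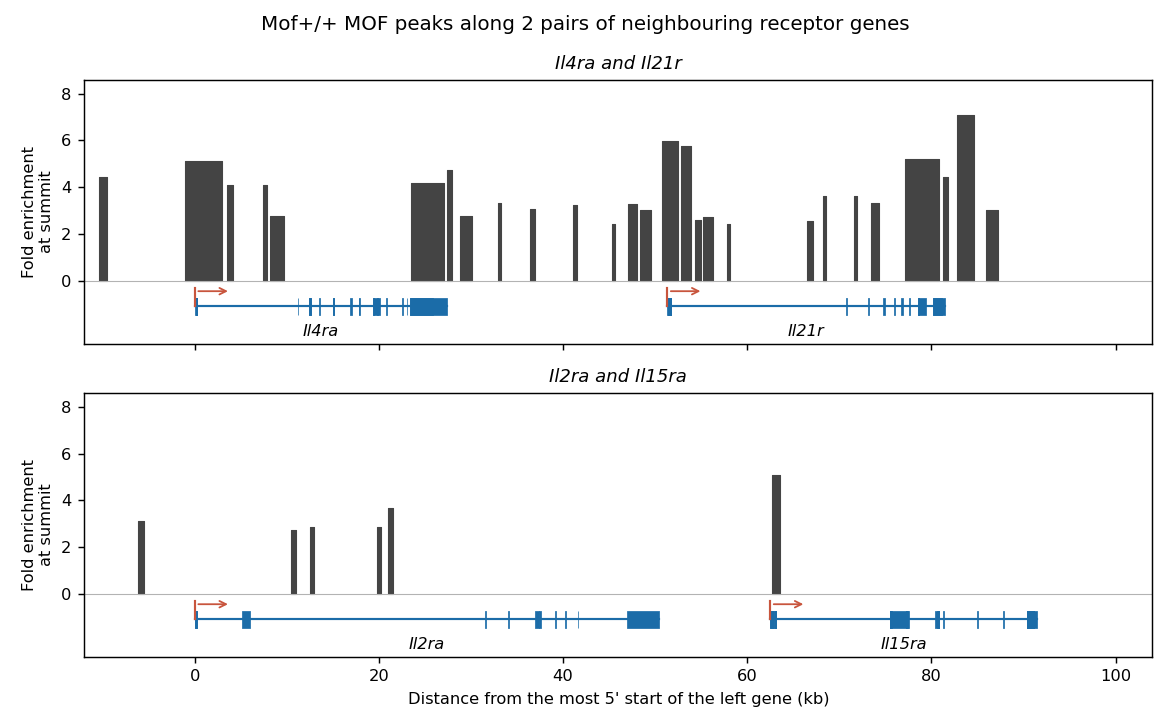
Mof+/+ MOF peaks along the Il4ra and Il21r pair (top) and the Il2ra and Il15ra pair (bottom), as distance in kb from the start of the left gene; the height of each dark block is the fold enrichment at its summit, its width is the peak, blue marks exons and red arrows mark gene starts. The upper span is densely covered, with 24 peaks, and the lower holds 5, of which 4 lie in Il2ra introns and 1 at a start of Il15ra.

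The other receptors of this family had less. Il2rb, the beta chain shared by IL-2 and IL-15, had 1 peak 350 bp from a start with a fold enrichment of 2.88 (1.59 to 4.86). Il7r, which naive T cells need to survive, had 1 intronic peak at 2.71 with its summit 5995 bp past the start. Il9r had none in the gene, and its nearest peak was 4732 bp away. Of the common beta chain partners, Il3ra had a promoter peak of 5.31 (3.45 to 7.86) whose 1 kb window also held the start of Gm48860. Il5ra, the eosinophil and B-1 cell receptor for IL-5, had a peak of 3.10 at 822 bp from an internal start.

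Among the receptors of the IL-6 and IL-12 family, 2 of 8 had a promoter peak and 4 had no peak at all. Il6ra, the IL-6 binding chain (chromosome 3, 89864059 to 89913196, minus strand), had a peak of 3066 bp over its start, with a fold enrichment of 5.31 (3.45 to 7.86). Its 7 other peaks ran through the gene body at 2.34 to 3.76. A start of the noncoding gene Gm42809 lay within 1 kb of the promoter peak, which cannot be given to one gene alone. Il27ra, a chain of the IL-27 receptor on T and NK cells, had a peak of 4.42 (2.75 to 6.78) over its start and another of 2.51, whose nearest start was that of Rln3. Il11ra1 had gene body peaks, but each lay within 1 kb of a start of another gene inside its long annotated span. Il12rb2, the signalling chain of the IL-12 receptor, had 1 peak of 3.32 in an intron near its 3′ end. Il12rb1, Il23r, Il31ra and Il11ra2 had no peak, with the nearest 3128 bp, 197790 bp, 21240 bp and 288005 bp from a start. The IL-12 and IL-23 chains, which direct T helper cells towards their effector fates, were thus without a promoter peak.

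In the IL-1 family 2 of 8 genes had a promoter peak, and both were among the weakest of the receptors. Il18rap, the accessory chain for IL-18, had 2.88 (1.59 to 4.86) and Il1rl2, a receptor for IL-36, had 2.65 (1.44 to 4.58). Il18r1 had 2 intronic peaks at 2.65 and 3.10, which are all the peaks of that gene. Il1r1, the main IL-1 receptor, and Il1r2, its decoy, had none, with the nearest peak 58014 bp and 91727 bp away. The ST2 receptor gene Il1rl1, classed here as general leukocyte since mast cells carry it beside regulatory T cells and type 2 innate lymphoid cells, had none, and the nearest was 29640 bp from a start. Il1rap, the accessory chain used by most of the family, lay farthest from any peak of all members, 659974 bp, although its promoter is rich in CpG sites. The nearest peak to Il1rn was 21674 bp from a start.

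Of the 5 IL-17 receptors, peaks clustered on Il17ra, the chain that the others pair with (chromosome 6, 120463247 to 120487559). It had a peak over its start with a fold enrichment of 5.09 (3.27 to 7.59), another of 4.25 at 659 bp from an internal start, and 6 more at 2.56 to 3.98 across the gene. Il17rc had 1 peak of 4.87 at its 3′ end, which lay within 1 kb of a start of Creld1. Il17rb, Il17rd and Il17re had none, with the nearest peak 19812 bp, 68505 bp and 15330 bp away.

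Receptors for IL-10 and its relatives were divided in the same way. Il10rb, the chain shared by IL-10, IL-22 and the type III interferons (chromosome 16, 91406164 to 91425834), had a peak of 5.15 (3.48 to 7.37) over its start and 2 intronic peaks at 3.10 and 3.54. Il10ra, the leukocyte chain that binds IL-10, had a promoter peak of 3.32 (1.91 to 5.42) and 3 gene body peaks at 3.10 to 3.54. Of these gene body peaks, that of 3.10 lay within 1 kb of a start of Gm20612 and that of 3.32 within 1 kb of a start of Mir7086. Il20rb had a peak of 3.76 at 747 bp from an internal start, with its summit 26030 bp past the first start of the gene. Il22ra2, which encodes a soluble inhibitor of IL-22, had 1 intronic peak of 2.55. Il20ra and Il22ra1, chains of epithelial cells, had none, with the nearest peak 19341 bp and 41486 bp away.

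The comparison of lymphoid-restricted with broad receptors asked whether MOF lay at receptors of the immune cells in fat or at those of many tissues. A promoter peak was found at 4 of 11 lymphoid receptors (36.4%, 15.2 to 64.6) and at 5 of 10 broad ones (50%, 23.7 to 76.3), on either side of the 42.7% of all genes, with a difference of -13.6 percentage points (95% Newcombe interval -47.4 to 25.0). Moving Il1rl1, which lymphoid cells of fat also carry, into the lymphoid class gave 4 of 12 and a difference of -16.7 points (-49.5 to 21.5). Moving Il10ra there instead gave 5 of 12 and -8.33 points (-42.9 to 28.9). With only peaks whose nearest start of all genes was that of the receptor, 4 of 11 and 4 of 10 had one, against 36.4% of all genes. That difference was -3.64 points (-39.3 to 32.9). Each interval includes both a large deficit and a large excess, so no difference in frequency was detectable with this number of genes. The 4 lymphoid genes were Il21r, Il27ra, Il18rap and Il2rb, with a median fold enrichment of 3.65 and a range from 2.88 to 5.97. The broad genes were Il6ra, Il10rb, Il4ra, Il17ra and Il15ra, with a median of 5.11 and a range from 5.09 to 5.31. Apart from Il21r, every lymphoid value lay under the lowest broad one, but their Poisson intervals overlapped. Il18rap and Il2rb were no longer counted at a q-value of at most 0.01, which left 2 of 11 lymphoid and 5 of 10 broad receptors, against 39.0% of all genes, a difference of -31.8 points (-61.2 to 7.74).

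The gene bodies of the same classes gave counts that depended on the limit. A peak in the gene body was found at 8 of 11 lymphoid (72.7%, 43.4 to 90.3) and 7 of 10 broad receptors (70.0%, 39.7 to 89.2), against 43.2% of all genes. With q-values up to 0.01 only, there were 5 of 11 (45.5%) and 7 of 10, against 39.3% of all genes. With those up to 0.001 there were 3 of 11 (27.3%) and 7 of 10, against 33.2%, and at the weakest p of the Mof+/- list 4 of 11 (36.4%) and 7 of 10, against 37.7%. The lymphoid share at these limits was thus near or under that of all genes. Whether these shares differ was not tested. Of the lymphoid genes, 4 (Il2ra, Il7r, Il12rb2 and Il18r1) had gene body peaks without a promoter peak, against 2.73% of all genes, and of the broad genes 2 had, Il11ra1 and Il17rc, whose peaks lay at starts of other genes. The highest −log10 q-values of those lymphoid genes were 3.96, 1.52, 2.58 and 2.07 in that order, so only Il2ra kept a peak with q-values up to 0.001. Myeloid or general leukocyte receptors had a promoter peak in 3 of 5 and the epithelial or other genes in 2 of 10, against 42.7% of all genes, with a median fold enrichment of 3.32 and 3.21.

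**Figure D3:**
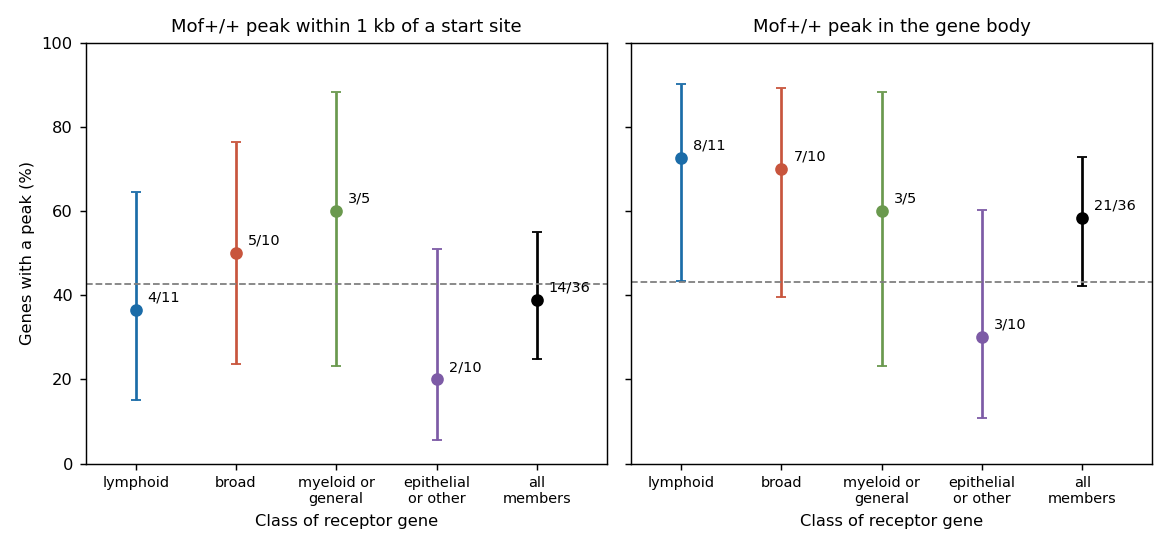
Percentage of receptor genes with a Mof+/+ MOF peak within 1 kb of a start site (left) and in the gene body (right), by class, with 95% Wilson intervals, the number of genes beside each point and a dashed line at the percentage of all autosomal protein-coding genes (42.7 and 43.2). The lymphoid and broad intervals overlap in both plots.

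Outside the windows around their own starts, 13 of 36 receptor genes had a peak in the gene body (36.1%), against 12.6% of all genes. Long genes offer more room, and the median receptor gene was 29.0 kb against 17.6 kb. Among genes of 10 to 100 kb the counts were 13 of 33 (39.4%) against 14.7%. With q-values up to 0.001 only, 9 of 36 (25.0%) had such a peak against 6.80%, and past the weakest p of the Mof+/- list 10 of 36 (27.8%) against 8.84%. When peaks within 1 kb of any annotated start were also left out, 11 of 36 (30.6%) remained against 10.7%, and 11 of 33 (33.3%) against 12.7% at that length. The next counts take the whole gene body, with the peaks at a gene's own starts included. At least 5 peaks in the gene body were found in 4 receptor genes (11.1%), Il21r with 11, Il6ra and Il17ra with 8 and Il4ra with 5, against 2.60% of all genes. At 10 to 100 kb these were 12.1% against 2.95%. These 4 genes held 32 of the 62 receptor peaks. Members had 0.452 gene body peaks per 10 kb and all genes 0.161, with peaks at own starts included and genes of every length pooled. Of the 46 receptor peaks away from starts, 35 had their summit in an intron, 3 in coding sequence, 7 in another exon and 1 outside the gene. They were narrower than the promoter peaks, with a median of 552 bp against 970 bp, and weaker, with a median fold enrichment of 3.31 against 4.33.

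CpG content differed between the classes. The CpG ratio, observed over expected CpG sites from 500 bp before the start to 500 bp after it, had a median of 0.27 over the receptors and 0.57 over all genes, and it was 0.21 in the lymphoid and 0.63 in the broad class. Of the receptors 23 had a low ratio, under 0.4, and 6 of those (26.1%) had a promoter peak, against 13.1% of all genes with a low ratio. Of 6 genes with a middle ratio 4 had one (66.7%), against 36.7%, and of 7 with a high ratio, from 0.6, 4 had one (57.1%), against 69.0%. In the low class, 3 of 9 lymphoid and 1 of 4 broad receptors had a peak, and no lymphoid receptor was in the high class. With genes of a high ratio left out, the difference between lymphoid and broad receptors was -3.64 percentage points (-46.2 to 36.3). Il21r combined a ratio of 0.21 with the highest fold enrichment, while Il1rap (0.68), Il17rd (0.87) and Il17rb (0.61) had a high ratio and no peak. The part of CpG content in the results was not tested.

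**Figure D4:**
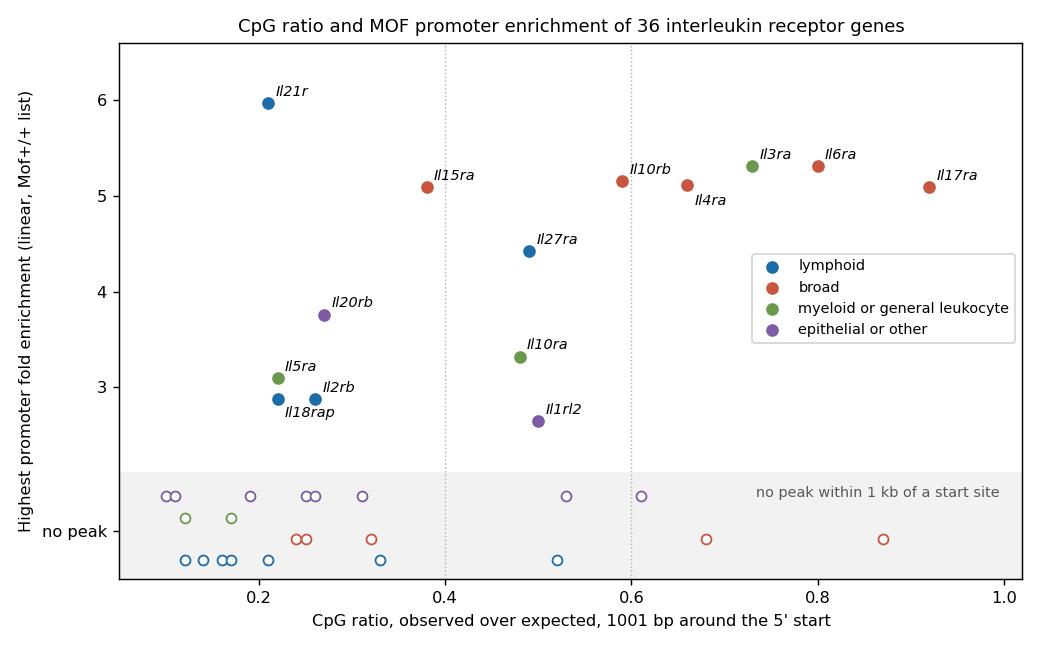
CpG ratio over 500 bp on each side of the start (horizontal) against the highest promoter fold enrichment in the Mof+/+ list (vertical, linear) for the 36 receptor genes, coloured by class, with genes that have no promoter peak as open points in the grey band (their height there only separates the classes) and dotted lines at ratios of 0.4 and 0.6. Il21r stands at a low ratio with the highest value, and 3 genes with a ratio above 0.6 have no peak.

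The RefSeq promoter table held 29 of the 36 members, and a Mof+/+ peak overlapped the 300-base promoter of 6 of them. Il10rb, Il17ra, Il27ra, Il2rb and Il10ra, which had a peak within 1 kb of a start, were among the members without an entry. Where a gene had several entries, the one under a peak was used, otherwise the one nearest to the first start. The median number of CpG sites was 20.0 in the promoters under a peak and 5 in the other 23, against 7 over all 31396 autosomal promoters of the table. The enzyme CviKI-1 cuts at AGCC and at AGCT, as well as at the same words with G as the first letter, and the median number of these sites was 6.50 and 7, against 7. Short words of 4 factor families were searched on both strands. The ETS word CCGGAA was in 2 of 29 (6.90%) against 15.1% of all promoters, and the RUNX word TGTGGT in 5 (17.2%) against 16.7%, Il7r, Il18rap and Il21r among them. The STAT word TTCNNNGAA was in 4 (13.8%) against 8.35%, and the GC box GGGCGG in 11 (37.9%) against 36%. None of these words holds another of them. A match describes the sequence and not binding.

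The other genes of the pathway gave counts on both sides of the 42.7% of all genes. Of 20 signalling genes, 19 (95%) had a Mof+/+ promoter peak, Cish being the exception. Jak1, the kinase used by most of these receptors, reached 6.19 with 16 peaks in its gene body, Jak2 had 6.19 and Stat3 had 5.53. Of 10 related chains outside the rule 6 (60%) had one, with Il6st, the gp130 partner of Il6ra, at 4.87, while Lepr, Osmr, Csf2rb and Csf2rb2 had none. Of 35 interleukin ligand genes 2 had one (5.71%), Il12a at 3.54 and Il16 at 3.75. No gene of these 3 lists had a Mof+/- promoter peak, which is close to the 1.37% of all genes. Their median CpG ratios were 0.64, 0.59 and 0.24, and 32 of the 35 ligand genes had a low ratio, of which 2 had a promoter peak, against 13.1% of all genes with a low ratio.

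Markers of the cells in the tissue were read in the same way. In the Mof+/+ list a promoter peak was found at 6 of 10 adipocyte markers, 8 of 10 T cell markers, 9 of 10 B cell markers, 1 of 10 macrophage markers and 1 of 5 NK cell markers, with fold enrichments from 2.26 to 7.30, against 42.7% of all genes. Most of these markers had a low CpG ratio, and among those that had, a peak was found at 4 of 8 adipocyte, 8 of 10 T cell, 8 of 9 B cell, 1 of 10 macrophage and 0 of 4 NK cell markers, against 13.1%. In the Mof+/- list only Pax5, the B cell factor, and Eomes, a factor of NK and T cells, had one, against 1.37% of all genes. The part of such cells in the result at lymphoid receptors was not tested.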

How the data were processed

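MOF ChIP-seq of visceral WAT was compared between Mof+/+ and Mof+/- mice with 1 peak list per genotype. According to the study's methods and the submitters' processing notes, the authors mapped reads to GRCm38 with snakePipes and called peaks with MACS2 2.1.1.20160309.3 against input at a q-value threshold of 0.1. Whether replicates were pooled before calling is not stated. The methods also join peaks closer than 1000 bp with bedtools, but 3796 and 148 neighbouring pairs in the lists were that close, so the lists precede that step. The design text gives 2 control and 3 Mof+/- animals, the labels 2 libraries and the reporting summary 2 littermates for either genotype. Lists were tied to genotypes by name. The deposited values were, for each summit, its position, its fold enrichment (a ratio), its −log10 q-value and its −log10 p-value. H3 libraries were not analysed here.

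Peaks were assigned to GENCODE M21 genes with Python 3.11.15, pandas 2.3.3, numpy 2.4.6, scipy 1.17.1 and pysam 0.24.0. A promoter peak lay within 1000 bp of any annotated start. Fragments at a summit were solved from the fold enrichment and p-value, which left 4 peaks per list unsolved, and the assignment and this step were tested on simulated data. Lists held 19579 and 712 autosomal peaks, with a lowest background of 3.52 and 2.26 fragments. All genes with peaks are named, the rest by their nearest peak. Members, classes and lists were chosen with earlier results of these data known. Genes are not replicates, so no test was made. Alternatives were other windows, start sites, q-value limits and class memberships.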

Additional observations from a re-analysis of the deposited data

Results flagged for a closer look

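Il2rg on chromosome X, which encodes the common gamma chain, was outside the autosomal rule. It had 1 Mof+/+ peak, within 1 kb of a start and reaching into the gene, with a fold enrichment of 2.90, and none in the Mof+/- list. It is given because it is signal in genes that the comparisons do not use. The other matches on chromosome X, Il13ra1, Il13ra2, Il1rapl1 and Il1rapl2, had no peak in either list.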

How the results depend on the processing

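Of 47 alternatives, 40 kept a count within 1.5 times of the reported one or a difference within its interval, 7 moved and 0 reversed. With q-values up to 0.001 only, which counts fewer peaks, 9 receptor genes (25.0%) had a Mof+/+ promoter peak, against 32.7% of all genes. A gene body peak at that limit was found at 13 (36.1%), against 33.2%. Without the 1 kb around their own starts 13 genes had a gene body peak, all of them 10 to 100 kb long, and of these 9 had one with q-values up to 0.001 and 10 past the weakest Mof+/- p. With the 1 kb around every annotated start left out, 11 did. The limits on length, on every annotated start and on strength away from starts, and the move of Il1rl1, were chosen after seeing the data. The receptor families were also drawn up after the peaks were known. With only the first start of each gene, 12 had a promoter peak. The Mof+/- counts were 0 under each of the 14 alternatives tried for them, which are among the 40. None of these could have raised the count, so they do not test it. The window of 3000 bp falls short of the nearest Mof+/- peak, 105833 bp from a start, and the others only leave peaks, starts or genes out. No paired analysis was possible because both lists, 1 per genotype, are without replicate numbers, and leaving out replicates was not possible either. With few fragments at each summit, weak binding was not detectable, least of all in the Mof+/- list.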
